A study of Mus musculus with 6 samples.

Results

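The genes examined here build the ciliary gate and the structures that anchor a cilium to the cell. They were the 35 genes of a list of transition zone modules, distal appendages and ciliary membrane GTPase genes, taken by symbol, and all 35 were found among the 21938 genes of the table. For the description they were sorted into 7 modules from textbook knowledge, with earlier results of these data known. The tissue was soft palate, the muscular rear portion of the palate, of mouse embryos at embryonic day 14. It was profiled by RNA sequencing in 3 control libraries (b-catenin fl/fl, replicates 1, 2 and 3) and 3 mutant libraries (Osr2-Cre;b-catenin fl/fl, replicates 5, 6 and 7). All embryos thus carry floxed alleles of Ctnnb1, the gene of β-catenin, and the mutants alone carry the Cre recombinase under control of Osr2, a gene of palatal mesenchyme. One field of the labels calls the controls wild type. The series title links canonical Wnt signalling in soft palate development to the homeostasis of cilia, and the question here is how the genes of the ciliary gate and base differed between the genotypes. Values are CPM, counted reads of a gene scaled to a common library total. Whether a library came from 1 embryo or from a pool is not stated, so p-values reflect only how much these libraries vary, which may be technical. With 3 libraries against 3 an exact permutation test cannot go below a two-sided p of 0.10, so the tests given are limma's, fitted on all genes.

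A primary cilium is a single antenna of the cell surface that receives Hedgehog and other signals, and many inherited ciliopathies include cleft palate. It grows from the mother centriole, which docks to the membrane through its distal appendages and is then called the basal body. Above the basal body lies the transition zone, where Y-shaped links join the microtubules to the membrane and where membrane proteins are admitted or held back. The MKS module (named after Meckel syndrome) holds membrane proteins and their partners in this gate, and the NPHP module (named after nephronophthisis) and CEP290 lie closer to the microtubules. Farther out, the inversin compartment, lipid-cargo GTPases and the polycystin channels occupy the shaft and its membrane.

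The libraries held an estimated 10018200 to 15088700 counted reads each. Ctnnb1 was at 718 ± 59.0 CPM in control and 600 ± 29.1 CPM in mutant libraries (SD, n = 3 each; adjusted p = 0.183 in limma), and Osr2 at 46.9 and 16.1 CPM (adjusted p = 0.0285). Osr2 no longer passed without the intensity trend (0.0702), with sex as a covariate (0.0570), or when any library other than control replicate 2 was left out (0.0691 to 0.130). For Ctnnb1 every mutant lay below every control, as for 10.8% of all genes, and the unadjusted p was 0.0281 in limma. The value of Ctnnb1 covers the whole gene in tissue that also holds cells without Cre. Of other markers of palatal mesenchyme, Prrx1 was at 339 and 312 CPM and Pdgfra at 342 and 303 CPM in controls and mutants. Twist1 was at 103 and 77.5 CPM, Meox2 at 61.7 and 36.3 CPM, and Tbx22 at 16.5 and 6.71 CPM. For Tbx22, control replicate 2 was at 32.8 CPM and the other controls at 7.68 and 8.95 CPM. Each of these markers had a lower mean in the mutant with overlapping groups. None passed an adjusted p of 0.05 in limma, and none was absent. Xist was above 100 CPM in control replicate 3 and mutant replicate 7 and not in the other libraries. Control replicate 3 held the lowest value of 19 of the 35 genes (54.3%, against 22% of all genes above 0 in every library), and mutant replicate 7 the highest of 15 (42.9%, against 19.3%). Summed olfactory and vomeronasal receptor RNA, a set chosen after the data were seen, was 116.1 CPM in mutant replicate 5 and 24.9 to 42.4 CPM in the other 5 libraries. Other measures of the libraries separated the genotypes: lincRNA took 1.91 to 2.20% of the CPM in the controls and 2.66 to 3.05% in the mutants, protein-coding genes 76.2 to 79.2% and 75.4 to 76.0%, and 840 to 970 against 237 to 588 genes lay under the level of 3 reads. The part of these measures in the results was not tested. In a bulk sample fewer cells of a type and less RNA per cell cannot be told apart.

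None of the 35 genes passed an adjusted p of 0.05 in limma, where 0.479% of all genes did. At an unadjusted p below 0.05, 9 genes were higher in the mutant (Cep290, Cep83, Rpgrip1l, Sclt1, Odf2, Ofd1, Iqcb1, Cc2d2a and Tctn1) and 0 were lower, where 13.4% of all genes were higher and 8.07% lower. The groups did not overlap, with all mutants above all controls, for 11 of the 35 (17.1% of all genes), and with all mutants below for Fam92a alone (10.8% of all genes). Of the 35 log2 changes 27 were positive, and their median was 0.17 on the log2(CPM + 1) scale, against 0.04 over all genes tested and -0.01 over the 13954 genes at or above the level of the lowest member. Without control replicate 3 the median was 0.05, with 8 of the 35 higher at an unadjusted p below 0.05. Over all 21938 genes the number at that p, in either direction, moved between fits too. It was 4702 with all libraries, 3878 without control replicate 3, 5002 without control replicate 2 and 2916 without mutant replicate 7. A changed count in such a fit is therefore not particular to the genes counted. All log2 changes below are mutant minus control on the log2(CPM + 1) scale, on which changes of low genes come out too small.

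**Figure D1:**
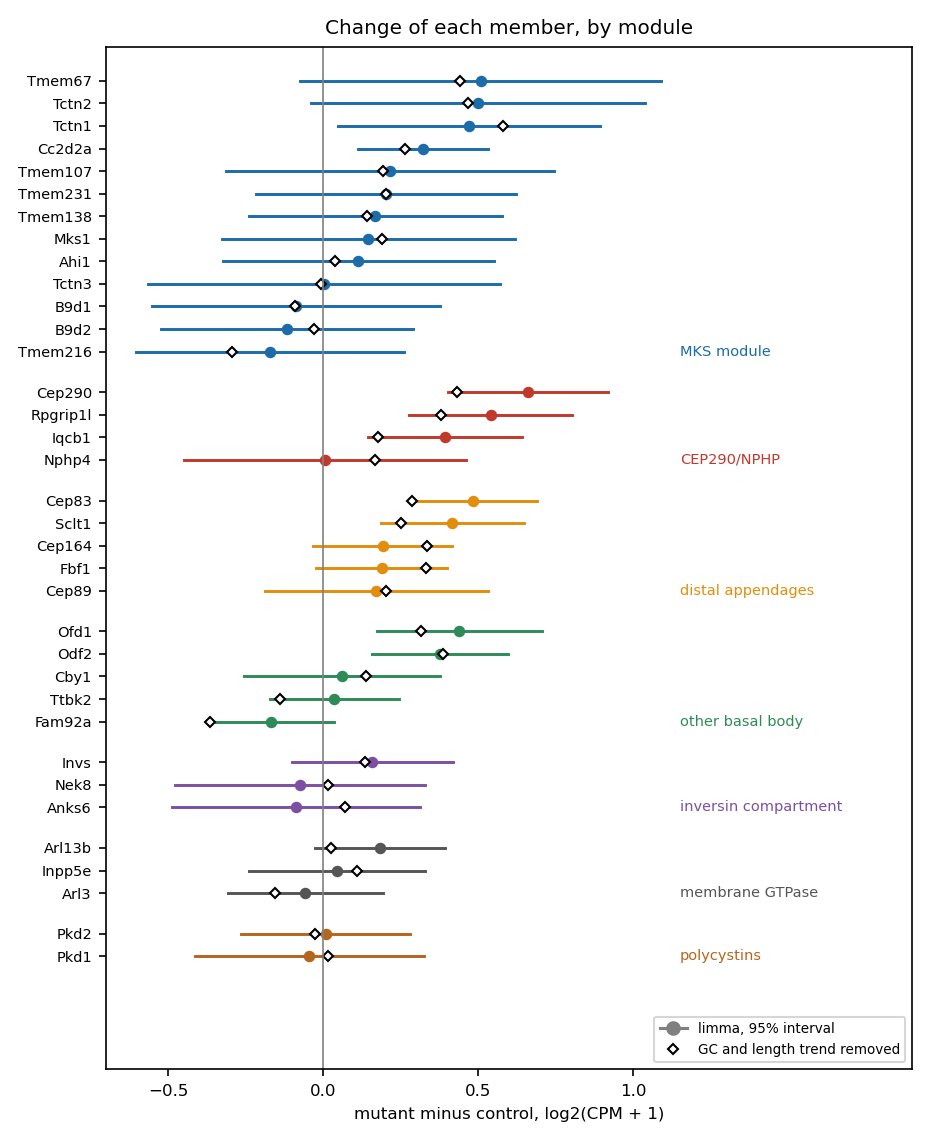
The log2 change (mutant minus control, log2(CPM + 1)) of each gene is drawn as a dot with limma's 95% interval, 3 libraries per group, coloured by module; open diamonds give the change after a trend on GC content and transcript length was removed. Cep290 lies farthest right at 0.66, and the diamonds of Cep290, Rpgrip1l and Cep83 lie to the left of their dots.

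The genes of CEP290 and the NPHP module had the highest module median, 0.47. At an unadjusted p below 0.05 in limma, 3 of the module's 4 genes were higher, where 13.4% of all genes were. With the GC and length trend removed its median was 0.278, beside 0.285 for the distal appendages. Differences between modules were not tested. Cep290 (chromosome 10, 100487558 to 100574840, plus strand, GENCODE vM21 on GRCm38, as for all positions below) encodes the large coiled-coil protein of the Y-links. It measured 71.0, 65.6 and 59.1 CPM in control and 91.5, 103.7 and 116.4 CPM in mutant libraries. All mutants lay above all controls, and the lowest mutant was replicate 5. Exons of 4930430F08Rik on the opposite strand cover 7.58% of its exons. Group means were 65.2 ± 5.95 and 103.9 ± 12.4 CPM (SD, n = 3 each), and the log2 change was 0.66 ± 0.11 (SE; adjusted p = 0.0513 in limma). It passed with an adjusted p of 0.0493 when only genes with a mean of at least 1 CPM were tested. It also passed, with 0.0461, when libraries were scaled to their median ratio. It missed with 0.158 after the GC and length trend was removed. Under every other alternative fit in limma it missed as well, with an adjusted p of up to 0.222 without mutant replicate 7. It was also the only one of the 35 genes in the filtered list that the authors deposited, which holds 2432 of the 21938 genes. The sources used here do not give the rule of that list, and so few of the 35 in it say nothing about the gate as a set.

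Rpgrip1l (chromosome 8, 91217030 to 91313262, minus strand) encodes a scaffold at the base of the NPHP complex. Its controls were at 56.3, 63.5 and 49.9 CPM and its mutants at 78.1, 77.6 and 92.0 CPM. The groups were apart, with mutant replicate 7 the highest library. The change was 0.54 ± 0.12 (SE; adjusted p = 0.0708 in limma), from 56.6 ± 6.79 to 82.6 ± 8.17 CPM (SD, n = 3 each). It passed when control replicate 2 was left out (adjusted p = 0.0453) and reached 0.268 without mutant replicate 7. Iqcb1, also called nephrocystin-5, encodes a partner of CEP290. It stood at 34.95, 28.7 and 29.1 CPM in control and at 39.8, 39.9 and 42.8 CPM in mutant libraries. The mutants lay within 4 CPM of each other and above every control. Means were 30.9 ± 3.47 and 40.8 ± 1.72 CPM (SD, n = 3 each), and the log2 change was 0.39 ± 0.11 (SE; adjusted p = 0.106 in limma). Nphp4, a scaffold of the same complex, had group means that differed by less than their spread, 7.74 ± 1.25 and 7.84 ± 1.93 CPM (SD, n = 3 each).

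**Figure D2:**
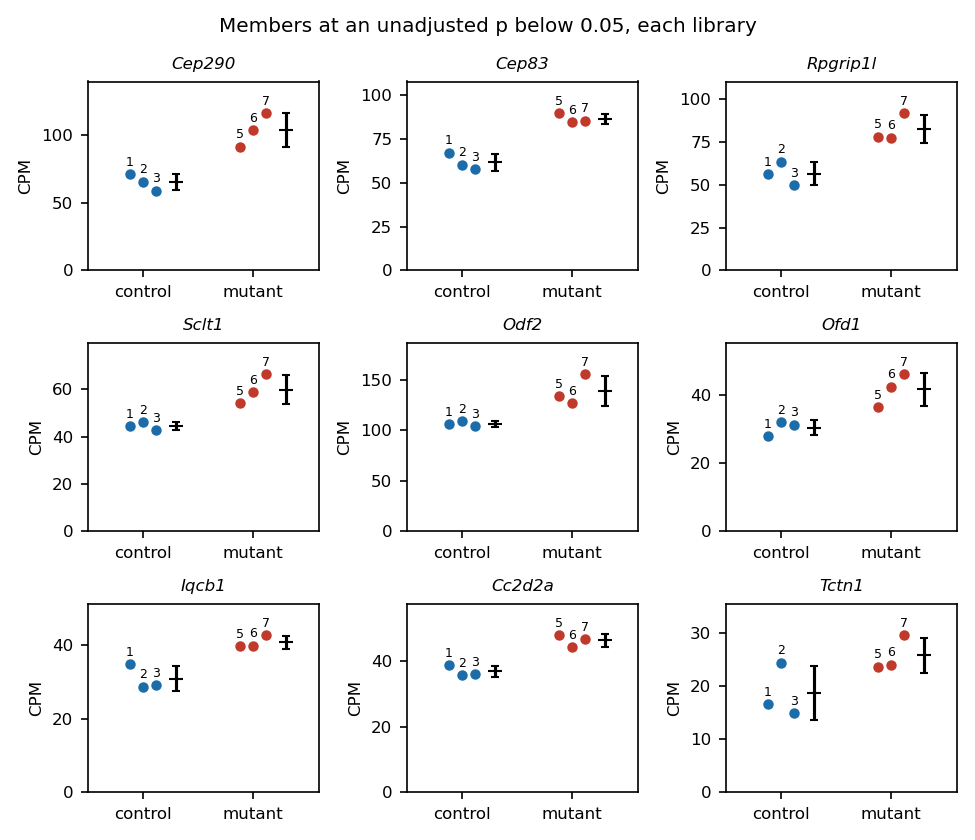
CPM of the 9 genes at an unadjusted p below 0.05 in each library (dots, labelled by replicate number; black bars give mean and SD of 3 libraries; each axis starts at 0). In 8 of the panels all mutants lie above all controls; in Tctn1 control replicate 2 lies among the mutants.

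Distal appendages form the ring of blades that holds the mother centriole to the membrane. All 5 measured genes of this module had a higher mean in the mutant, and the module median was 0.19. At an unadjusted p below 0.05 in limma 2 of the 5 were higher, where 13.4% of all genes were. In 4 of 5 all mutants lay above all controls, as in 17.1% of all genes. Cep83 (chromosome 10, 94688654 to 94790853, plus strand) encodes the innermost component, on which the others assemble. It measured 67.1, 60.4 and 57.7 CPM in control and 89.8, 84.4 and 85.4 CPM in mutant libraries. The gap between the groups was wider than either group's range. Group means were 61.7 ± 4.85 and 86.5 ± 2.87 CPM (SD, n = 3 each), and the log2 change was 0.48 ± 0.09 (SE; adjusted p = 0.0577 in limma). Sclt1, which depends on CEP83 for its place in the appendage, was at 44.3, 46.01 and 42.8 CPM in control and at 54.2, 58.7 and 66.4 CPM in mutant libraries. Its controls were tight and its mutants spread upward to replicate 7. Group means were 44.4 ± 1.596 and 59.8 ± 6.18 CPM (SD, n = 3 each), and the log2 change was 0.42 ± 0.10 (SE; adjusted p = 0.0854 in limma).

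In the other 3 genes the log2 changes were 0.17 to 0.19, but with the GC and length trend removed those of Cep164 (0.34) and Fbf1 (0.33) were above those of Cep83 (0.28) and Sclt1 (0.25). Cep164, which recruits the kinase TTBK2 and vesicles to the appendage, measured 58.3, 70.6 and 67.2 CPM in control and 73.9, 71.9 and 77.9 CPM in mutant libraries. The groups were apart by little more than 1 CPM, and the change was 0.19 ± 0.10 (SE; adjusted p = 0.298 in limma). Fbf1, a component of the matrix between the blades, had means of 85.3 ± 5.24 and 97.4 ± 7.25 CPM (SD, n = 3 each), also without overlap. Cep89 was at 29.3 ± 3.40 and 33.5 ± 7.24 CPM (SD, n = 3 each), and its groups overlapped.

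Of the other genes of the basal body, 2 of 5 were higher in limma at an unadjusted p below 0.05 (13.4% of all genes). The median was 0.06, and it was 0.18 without control replicate 2 and 0.11 without mutant replicate 5. Odf2 encodes a scaffold of the appendages of the mother centriole. It measured 105.8, 109.4 and 103.9 CPM in control and 133.7, 127.2 and 155.7 CPM in mutant libraries, with mutant replicate 7 the highest. The groups were apart, and the log2 change was 0.38 ± 0.10 (SE; adjusted p = 0.0915 in limma). Ofd1, the X-linked gene of oral-facial-digital syndrome, encodes a protein of the distal centriole and of centriolar satellites. It was at 28.0, 32.0 and 31.4 CPM in control and at 36.6, 42.5 and 46.3 CPM in mutant libraries, again with no overlap (0.44 ± 0.12 SE; adjusted p = 0.101 in limma).

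Ttbk2, the kinase that CEP164 brings to the basal body to start cilium growth, had means of 82.9 ± 4.62 and 85.1 ± 6.29 CPM (SD, n = 3 each). Its exons overlap those of Cdan1 on the same strand over 29.9% of their length. Cby1, a small protein recruited to the appendages, was at 22.9 ± 3.83 and 23.8 ± 1.65 CPM (SD, n = 3 each). Fam92a encodes its membrane-bending partner and was the single gene with every mutant below every control. It was at 53.6, 56.2 and 57.7 CPM in control and at 46.9, 52.9 and 48.8 CPM in mutant libraries, a log2 change of -0.17 ± 0.09 (SE; adjusted p = 0.315 in limma). It was set out in full after its values were seen.

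The MKS module, with 13 genes, had a median of 0.17. Of the 13 genes 2 were higher in limma at an unadjusted p below 0.05, near the share of 13.4% over all genes. Cc2d2a encodes a large C2-domain protein needed to assemble the module. It measured 39.0, 35.7 and 36.1 CPM in control and 48.1, 44.4 and 46.7 CPM in mutant libraries. Every mutant was above every control, and the log2 change was 0.32 ± 0.09 (SE; adjusted p = 0.111 in limma). Tctn1, the first of the tectonics, secreted or membrane proteins of the gate, was at 16.6, 24.4 and 14.9 CPM in control and at 23.6, 24.0 and 29.6 CPM in mutant libraries. Control replicate 2 lay among the mutants, and the change was 0.47 ± 0.19 (SE; adjusted p = 0.194 in limma). Exons of Hvcn1 on the opposite strand cover 19.0% of its exons. Not given in the sources used here is whether counting used strand.

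The other 11 genes of the module did not reach an unadjusted p of 0.05. Tmem67, the receptor-like meckelin, was at 16.8 ± 6.48 and 23.1 ± 1.58 CPM (SD, n = 3 each), and Tctn2 at 14.5 ± 5.06 and 20.2 ± 3.01 CPM. Their log2 changes of 0.51 and 0.50 were as large as that of Tctn1, and their controls had a coefficient of variation of 38.6% and 35.01%, against 27.4% for Tctn1. For both the lowest value was control replicate 3, 9.68 CPM for Tmem67 and 9.34 CPM for Tctn2. Tctn3 had means of 11.3 and 10.8 CPM. Among the small membrane proteins Tmem231 had means of 18.2 and 20.6 CPM, Tmem107 of 7.09 and 8.12 CPM, Tmem138 of 8.73 and 9.88 CPM and Tmem216 of 7.01 and 6.12 CPM. The last pair are neighbours on chromosome 19, on the same strand and 14239 bases apart, and the signs of their differences were opposite, 0.17 and -0.17. Tmem138 shares 31.4% of its exon length with AC125093.1, which was not analysed here, and 8.09% with Cyb561a3, and Tmem216 shares 5.15% with Cpsf7, all on the opposite strand. The B9-domain proteins form a complex of their own: B9d1 had means of 9.59 and 8.82 CPM, B9d2 of 4.51 and 4.06 CPM and Mks1 of 10.4 and 11.5 CPM. Ahi1, a Joubert syndrome gene of the same gate, was at 31.2 and 34.0 CPM.

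Control replicate 3 was the lowest library for 8 of the 13 MKS genes. The median deviation of the module from the gene means was -0.06, 0.21 and -0.45 in control replicates 1, 2 and 3 and 0.08, 0.06 and 0.17 in the mutants (log2 scale). The controls thus spanned the whole range of the mutants. Without control replicate 3 the module median was -0.00090, and it was 0.30 without control replicate 2 (4 genes higher at an unadjusted p below 0.05) and 0.26 without mutant replicate 5. Without control replicate 1 or 3 or mutant replicate 6 or 7, 1 gene of the module was higher at that p. Over all genes 5002 had such a p in either direction without control replicate 2, and 2916 to 4023 in these last fits. With control replicate 3 left out the median of CEP290 and the NPHP module was 0.40 and that of the distal appendages 0.21. With all libraries, in those last 2 modules every mutant median lay above every control median, as it did for the other basal body genes and the membrane GTPase genes, and in the MKS module they overlapped.

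**Figure D3:**
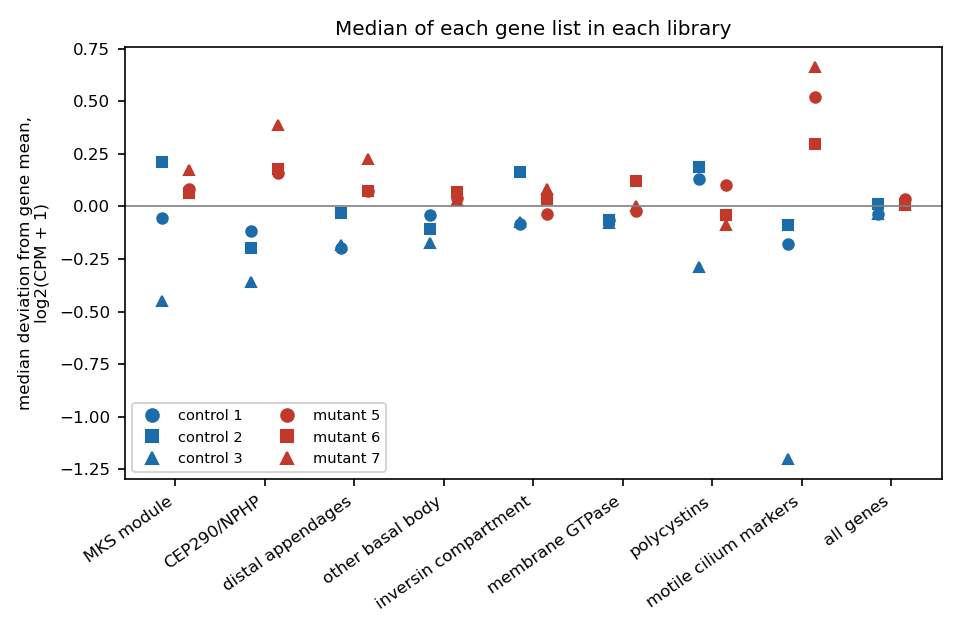
Median deviation from each gene's mean over the 6 libraries (log2(CPM + 1)) in each library, for the 7 modules, the motile cilium markers and all genes; marker shapes tell libraries apart and pair none. Control replicate 3 is lowest in the MKS module at -0.45 and in the motile cilium markers at -1.20, and the medians of all genes lie within 0.04 of 0.

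Beyond the gate none of the 8 genes reached an unadjusted p of 0.05 in limma. Of the inversin compartment, Invs, its anchor, was at 24.1, 24.7 and 23.7 CPM in control and at 28.3, 29.5 and 23.9 CPM in mutant libraries. Mutant replicate 7 lay among the controls, and the log2 change was 0.16 ± 0.11 (SE; adjusted p = 0.458 in limma). Nek8, the kinase of the compartment, had means of 6.33 and 5.99 CPM, and Anks6, which activates it, of 13.1 and 12.1 CPM. Arl13b, a GTPase of the ciliary membrane that activates ARL3, was at 35.7, 34.8 and 34.6 CPM in control and at 37.6, 41.1 and 41.2 CPM in mutant libraries. The groups were apart, and the change was 0.18 ± 0.09 (SE; adjusted p = 0.292 in limma). Arl3, which releases lipidated cargo in the cilium, had means of 41.4 and 39.8 CPM. Inpp5e, a phosphatase that sets the lipid makeup of the ciliary membrane, had means of 24.3 and 24.9 CPM, and 20.3% of its exons overlap Pmpca on the opposite strand.

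The polycystins, a receptor-like protein and the channel it pairs with, did not differ beyond the spread of their libraries. Pkd1 measured 132.2, 162.4 and 103.0 CPM in control and 144.4, 122.0 and 114.1 CPM in mutant libraries. The mutants lay inside the range of the controls, with a log2 change of -0.05 ± 0.16 (SE; 95% interval -0.41 to 0.32, adjusted p = 0.896 in limma). Pkd2 was at 168.6, 148.8 and 121.1 CPM in control and at 148.3, 144.1 and 144.3 CPM in mutant libraries. Its mutants were within 5 CPM of each other while its controls spread widely, and the change was 0.01 ± 0.12 (SE; 95% interval -0.26 to 0.28, adjusted p = 0.978 in limma).

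Levels of different genes can be set side by side only per length. The length used was that of all annotated exons of a gene joined. It can exceed the longest transcript, as for Tctn2 with 8318 against 3400 bases, so the order depends on the annotation. In CPM per kilobase of exon the controls had Cby1 highest at 18.7, then Arl3 at 16.6, Pkd2 at 14.4, Fam92a at 11.9 and Fbf1 at 11.0. Nek8 at 1.21, Nphp4 at 1.28 and Tctn2 at 1.74 were the lowest. Cep290 stood in the middle at 5.62 and Cep83 at 8.49. By this measure the genes with the smallest p were not the most abundant of the list.

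Promoters were read for what the modules share beyond their expression. RFX factors are the classic regulators of ciliary genes and TCF/LEF factors are the DNA-binding partners of β-catenin. RefSeq promoter windows (GRCm38.p6), 250 bases before to 50 after an annotated start, were matched by symbol for 32 of the 35 genes (not for Tmem67, Fam92a and Anks6). The RFX core GTTGCC, searched on both strands, was in at least 1 window of 12 of the 32 (37.5%), against 14.9% of the 13042 genes of the table with a window and 12.5% of all windows of this length. By module it was in 8 of 12 MKS genes, 1 of 4 of CEP290 and the NPHP module and 1 of 5 distal appendage genes. Of the 9 genes at an unadjusted p below 0.05 it was in Tctn1 alone, and of the other 23 in 11. The longer GTTGCCATG, which contains the core, was in Tctn2 alone (3.12% of the genes, against 0.82%). The TCF/LEF core CTTTGAT, on both strands, was in 0 of the 32, where 3.11% of the table's genes had it in a window. A match is a description of letters and not a bound site, and the lack of a match says only that these letters are not in these windows.

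The windows of the 3 tectonics and of Tmem231 are shown as MKS genes with the core, and that of Cep290 as the gene with the smallest p and without it. Each runs 5′ to 3′ on the gene's strand, in lower case with GTTGCC or its reverse complement in capitals. They lie at chr5:122264411-122264710 (minus strand, Tctn1), chr5:124598499-124598798 (plus strand, Tctn2), chr19:40612182-40612481 (minus strand, Tctn3), chr8:111933764-111934063 (minus strand, Tmem231) and chr10:100487332-100487631 (plus strand, Cep290).
Tctn1: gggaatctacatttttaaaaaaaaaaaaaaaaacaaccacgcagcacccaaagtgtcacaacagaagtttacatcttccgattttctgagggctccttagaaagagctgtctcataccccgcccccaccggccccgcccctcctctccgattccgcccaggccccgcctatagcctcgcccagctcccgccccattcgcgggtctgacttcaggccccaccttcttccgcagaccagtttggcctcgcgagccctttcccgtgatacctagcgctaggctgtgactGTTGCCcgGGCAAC
Tctn2: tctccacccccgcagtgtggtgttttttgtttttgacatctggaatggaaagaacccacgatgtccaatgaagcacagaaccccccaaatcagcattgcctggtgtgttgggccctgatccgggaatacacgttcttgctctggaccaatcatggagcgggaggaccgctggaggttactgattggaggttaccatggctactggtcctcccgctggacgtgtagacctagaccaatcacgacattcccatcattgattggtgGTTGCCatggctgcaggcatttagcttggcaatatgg
Tctn3: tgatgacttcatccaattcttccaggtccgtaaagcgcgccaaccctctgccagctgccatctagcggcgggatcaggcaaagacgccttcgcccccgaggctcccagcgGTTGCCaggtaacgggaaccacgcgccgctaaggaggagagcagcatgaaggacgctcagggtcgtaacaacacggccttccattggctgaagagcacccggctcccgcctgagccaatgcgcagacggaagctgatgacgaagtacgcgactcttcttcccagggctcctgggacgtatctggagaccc
Tmem231: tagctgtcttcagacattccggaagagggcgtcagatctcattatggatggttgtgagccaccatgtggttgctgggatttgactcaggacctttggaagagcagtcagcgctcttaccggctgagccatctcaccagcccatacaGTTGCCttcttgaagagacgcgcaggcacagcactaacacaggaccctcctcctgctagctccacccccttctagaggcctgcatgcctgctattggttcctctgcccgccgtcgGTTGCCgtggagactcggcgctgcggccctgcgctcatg
Cep290: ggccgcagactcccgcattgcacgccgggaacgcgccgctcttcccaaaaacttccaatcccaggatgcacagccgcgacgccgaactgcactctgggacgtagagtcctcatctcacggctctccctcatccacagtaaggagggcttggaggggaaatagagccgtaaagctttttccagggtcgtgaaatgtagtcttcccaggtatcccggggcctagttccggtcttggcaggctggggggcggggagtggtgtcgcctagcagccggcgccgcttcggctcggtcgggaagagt
Tctn1 carries the core on both strands, starting 37 and 45 bases from the start site, close together and pointing at each other. Tmem231 carries it at -104 and 12, Tctn2 at 14 and Tctn3 at -140. None of these 4 genes passed an adjusted p of 0.05 in limma, and their log2 changes ran from 0.00 for Tctn3 to 0.50 for Tctn2.

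**Figure D4:**
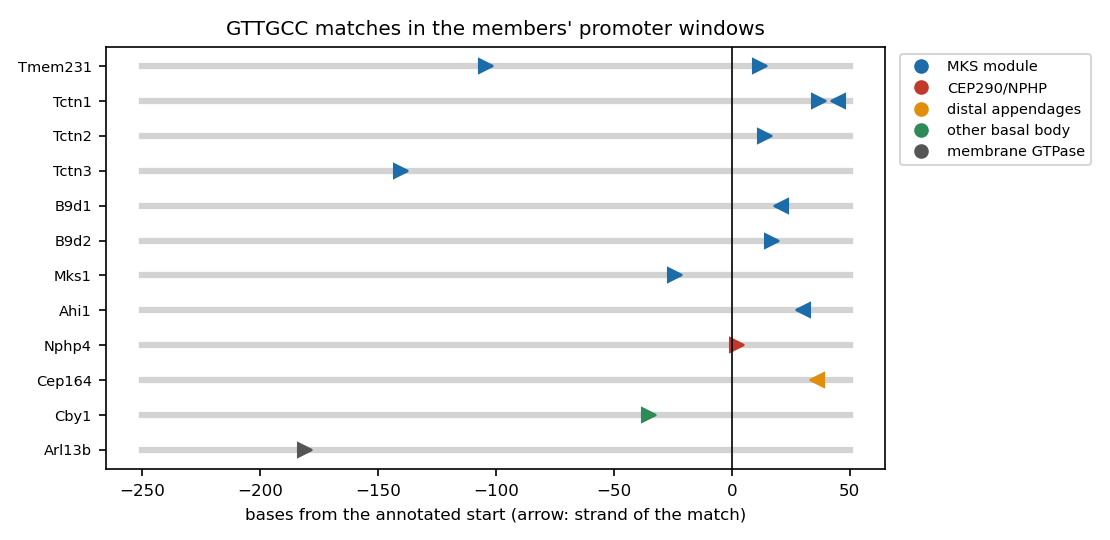
Position of GTTGCC (arrows; right for the gene's strand, left for the opposite one) in the promoter windows (grey, 250 bases before to 50 after the start) of the 12 genes with a match, coloured by module. In 8 of the 12 genes, all of the MKS module, arrows are blue, and most arrows lie within 50 bases of the start.

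The differences varied with the GC content of the transcript. Across the 18355 genes with a mean of at least 1 CPM and an annotated transcript, Spearman's rho between GC content and log2 change was -0.35, and across the 35 genes it was -0.38; genes share libraries and are not independent. Below 42% GC, 27.8% of all genes were higher in limma at an unadjusted p below 0.05, and at or above 54% GC 4.24% were. Cep290 (38.7% GC), Cep83 (40.4%), Iqcb1 (40.7%) and Rpgrip1l (41.6%) fall in the first band, and so does Fam92a (40.9%), which was lower in the mutant. The median log2 change in that band was 0.20 over all genes and 0.48 over these 5.

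With the trend on GC content and length removed, none of the 35 genes passed an adjusted p of 0.05, and 10 were higher and 1 lower in limma at an unadjusted p below 0.05, where 9.34% of all genes were higher and 10.5% lower. Of the 9 genes named above 8 were among the 10. The log2 change of Cep290 was then 0.43, of Rpgrip1l 0.38, of Cep83 0.28 and of Iqcb1 0.18. Iqcb1 was the gene that no longer reached that threshold (adjusted p = 0.401 in limma). Cep164 at 0.34 and Fbf1 at 0.33, both rich in GC, came in, so that 4 of 5 distal appendage genes were higher at that p. The single lower gene was Fam92a at -0.37. The median over the 35 genes was 0.17 with and without the trend, and over all genes it was -0.02 with the trend removed. The part of base composition in the differences between the libraries was not tested further.

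**Figure D5:**
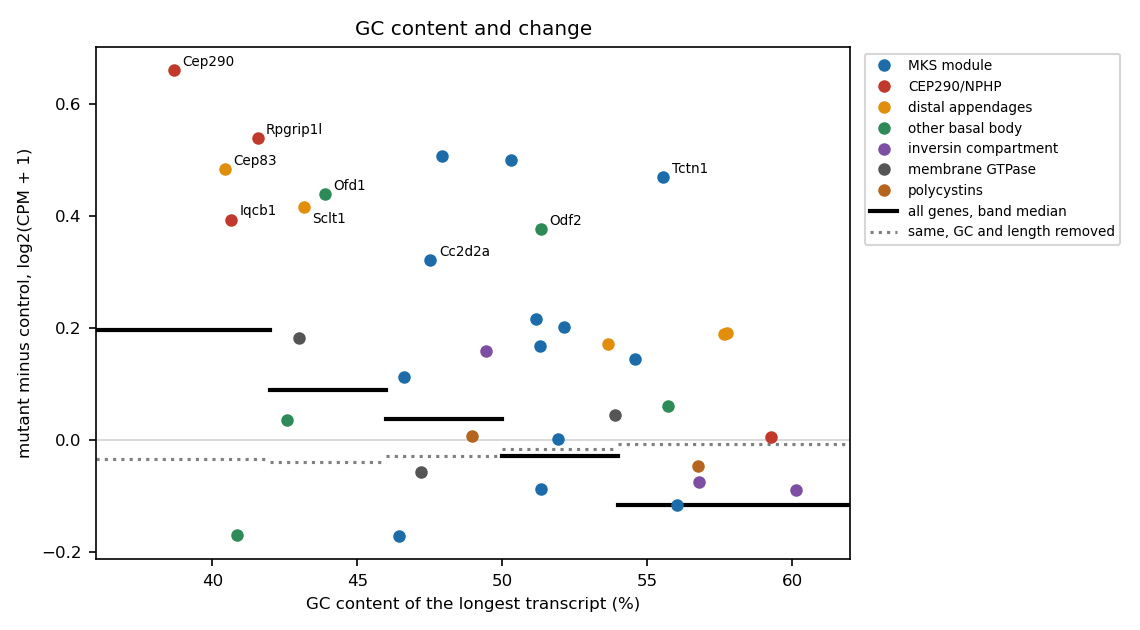
Log2 change (mutant minus control, log2(CPM + 1)) of the 35 genes against the GC content of the longest transcript, coloured by module, with names for the 9 at an unadjusted p below 0.05. Black lines are medians of all genes in bands of GC content, from 0.20 below 42% to -0.12 from 54% upward, and dotted lines are the same after the trend was removed.

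Other genes of the same structures were described from lists of 22, 24 and 15 genes. In limma 13.4% of all genes were higher and 8.07% lower at an unadjusted p below 0.05. The list of 22 other transition zone genes was a wide one and was not limited to parts of the gate, as it held the centriolar satellite gene Pibf1. In it 2 genes rose at an adjusted p below 0.05 in limma, 10 were higher at an unadjusted p below 0.05 and the median log2 change was 0.29. The pair were Cspp1, a microtubule-binding Joubert syndrome gene, which went from 96.9 ± 9.36 to 150.9 ± 8.09 CPM (SD, n = 3 each; adjusted p = 0.0387), and Pibf1, a centriolar satellite gene, from 42.9 ± 2.92 to 64.6 ± 0.278 CPM (adjusted p = 0.0391). With the GC and length trend removed neither passed (adjusted p = 0.124 and 0.0950). Neither passed without the intensity trend or with sex as a covariate, and without any library other than control replicate 2 they lay at 0.0859 to 0.182 and 0.0914 to 0.183. Of 24 other basal body and appendage genes 0 passed in limma, 16 were higher at an unadjusted p below 0.05 and the median was 0.31. That count was 9 without control replicate 3, 6 without mutant replicate 7 and 10 with the GC and length trend removed. Over all genes 4702 had such a p in either direction with all libraries, 3878 without control replicate 3 and 2916 without mutant replicate 7. With the trend removed 9.34% of all genes were higher at that p. In this list the smallest p were those of Cntrl (106.5 and 167.4 CPM) and Cep128 (44.4 and 81.1 CPM), both of the subdistal appendage. Of 15 other genes of ciliary GTPases and lipid transport 0 passed, 1 was higher (Rab28, 33.5 and 41.1 CPM) and 1 lower (Cys1, 3.94 and 2.24 CPM) at an unadjusted p below 0.05, with a median of -0.06. With the GC and length trend removed the log2 change of Rab28 was -0.01 and neither gene had an unadjusted p below 0.05. In that fit 2 other genes of the list were lower at that p, Rp2 (-0.36) and Rab11a (-0.31), where 10.5% of all genes were. The list median was then -0.13. Without control replicate 2 or any single mutant replicate 0 genes of the list were higher at that p. Without any single control replicate, or without mutant replicate 6 or 7, 0 were lower. Of 4 Hedgehog target genes, which read out signalling through primary cilia, 0 passed and 1 was lower at an unadjusted p below 0.05 (Hhip, 60.9 and 32.8 CPM). The groups of Hhip overlapped, and 0 genes were lower at that p without control replicate 2 or without mutant replicate 7. Ptch1 was at 205.8 and 173.7 CPM.

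Markers of cells with motile cilia, which share the transition zone and basal body with primary cilia, were also higher in the mutant libraries. All 33 measured markers had a positive log2 change, with a median of 1.03. In limma 0 passed an adjusted p of 0.05, and 25 had an unadjusted p below 0.05, where 13.4% of all genes were higher. Without control replicate 3 the median was 0.65, with 23 at an unadjusted p below 0.05. Over all genes 3878 had such a p in either direction in that fit, against 4702 with all libraries. Dnah2, an axonemal dynein heavy chain, had means of 17.3 and 37.6 CPM and Spag17, of the central pair, of 15.0 and 32.2 CPM. Their summed level was 538.7, 644.5 and 265.2 CPM in control replicates 1, 2 and 3 and 925.1, 765.1 and 1014 CPM in mutant replicates 5, 6 and 7, and none of the measured markers was at 0 in a library. The controls lay below the mutants, and control replicate 3, the lowest for most genes of the gate, was lowest here as well. Foxj1, the master regulator of motile cilia, had means of 67.0 and 83.7 CPM (adjusted p = 0.472 in limma). Its groups overlapped, and control replicate 2 was the highest library at 104.3 CPM. The part of motile ciliated cells in the results on the 35 genes was not tested.

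Among markers of other tissues, 0 of 18 epithelial genes passed the adjusted threshold in limma, with a median of 0.34 (Krt15, 451 and 687 CPM, and Krt18, 72.2 and 105.7 CPM). At an unadjusted p below 0.05, 4 were higher (13.4% of all genes). The count was 9 without control replicate 2 (median 0.52), 10 without mutant replicate 5 (median 0.51), and 7 with the GC and length trend removed or with median-ratio scaling. Over all genes 5002 had such a p in either direction without control replicate 2 and 4100 without mutant replicate 5. It was 4765 with median-ratio scaling and 4702 with all libraries unscaled. With the trend removed 9.34% of all genes were higher at that p. The summed epithelial level was 1640 to 2548 CPM in control and 2199 to 3089 CPM in mutant libraries, so the ranges overlapped. Of 25 skeletal muscle genes 11 fell at an adjusted p below 0.05 in limma, where 0.479% of all genes passed. All 25 were lower at an unadjusted p below 0.05 (8.07% of all genes), with a median of -1.15 (Pax7, from 13.3 to 4.25 CPM, and Myog, from 64.1 to 21.6 CPM). With the GC and length trend removed 3 of the 25 passed, without control replicate 2 21 did, and 0 did without any of the other 5 libraries, without the intensity trend or with sex as a covariate. Their summed level was 7658 to 15938 CPM in control and 5061 to 6278 CPM in mutant libraries. CPM are shares of a total, and the part of these tissues in the results on the genes of the gate was not tested.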

How the data were processed

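Per the submitters' processing notes, STAR aligned the reads of the 6 libraries to mm10. The sources used here do not give versions, counting, strand or annotation. The deposited table holds CPM with 0.0001 added to each value, as found from the values; the constant was subtracted, and no per-sample column was left unused (0 columns). Low values were not whole reads throughout, so no count model was fitted; depth was estimated from the step of low values. Per the series' design text the RNA was of high integrity.

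The 35 genes, the 7 modules and the 7 other lists were chosen with earlier results of these data known. Log2(CPM + 1) was compared with limma (version 3.58.1, R 4.3.3) under an intensity trend, two-sided, with Benjamini-Hochberg adjustment over 21938 genes and no filter; the threshold was 0.05. All 35 genes are named; library values and statistics are given for the smallest p of each module, each of the 35 at an unadjusted p below 0.05, and Cep290, Cep164, Arl13b, Pkd1 and Pkd2, with Fam92a added after its values were seen. Of each other list the 2 genes of smallest p are named, by group means. Of the other lists 5 symbols were not found in the table (Ccdc41, Cep123, Dnai1, Dnai2 and Stoml3). They were not looked up under other names, so a gene among them may be in the table under another symbol. Positions, exon lengths and GC content came from GENCODE vM21 (GRCm38), which matched 21376 genes (97.4%) and all 35 members, and promoters from RefSeq (GRCm38.p6). The fit was also run on simulated counts with independent noise per gene and no GC trend or library-wide shift. That run cannot vouch for the calls in these libraries. Alternatives changed the pseudocount to 0.1, the filter to a mean of 1 CPM, the scaling and the prior, removed a trend on GC content and length, added sex read from Xist, or left out each replicate.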

Additional observations from a re-analysis of the deposited data

How the results depend on the processing

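The 105 genes of the table called by limma became 25 with the GC and length trend removed, 0 without the intensity trend (4516 at an unadjusted p below 0.05) and 0 with sex as a covariate (4356), and ranged from 0 to 452 with a replicate left out: 0 without control replicate 1 or 3 or mutant replicate 5 or 6 (3806 to 4100 genes with unadjusted p below 0.05), 2 without mutant replicate 7 and 452 without control replicate 2. The median of the 35 genes ranged from 0.0499 without control replicate 3 to 0.22 without control replicate 2. The count of genes lower at an unadjusted p below 0.05 was 1 with the GC trend removed. Of 420 pairs of gene and alternative 388 kept direction and still did not pass the adjusted threshold, 29 turned sign and 3 newly passed. None of the 35 genes passed with all libraries, so the 388 describe direction and not the stability of a call. Under none of the 12 alternatives did 20 of the genes turn sign. With the GC and length trend removed the log2 change was Anks6 0.0688, Nek8 0.0143, Pkd1 0.0138, Pkd2 -0.0264, Tctn3 -0.00766, Ttbk2 -0.14. Over the fits without a replicate the log2 change ranged as follows: Ahi1 -0.0726 to 0.26, Anks6 -0.21 to 0.0769, Arl3 -0.13 to 0.00648, B9d1 -0.20 to 0.11, Cby1 -0.0521 to 0.18, Inpp5e -0.0329 to 0.15, Mks1 -0.0425 to 0.30, Nek8 -0.16 to 0.0427, Nphp4 -0.17 to 0.11, Pkd1 -0.21 to 0.11, Pkd2 -0.12 to 0.12, Tctn3 -0.30 to 0.20, Tmem107 -0.0268 to 0.43, Tmem231 -0.0009004 to 0.36, Ttbk2 -0.0233 to 0.0725. The cause was not tested. No paired analysis was possible because the groups share no replicate number. Each of the 35 genes lay above the level of 3 reads in every library.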
